A study of Mus musculus with 12 samples.

Results

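Death receptors are members of the tumour necrosis factor (TNF) receptor family with a cytoplasmic death domain that recruits adaptors. Directly or through other adaptors, they can engage the adaptor Fadd and, through it, the initiator caspase encoded by Casp8. Cflar encodes c-FLIP, a relative of that caspase without protease activity that joins the same complex and limits its activation. In thymocytes and T cells the pathway is known for removing activated and autoreactive cells, and TNF receptors also signal through kinases and ubiquitin enzymes to NF-kappaB. The 9 genes described here are the receptors Fas, Tnfrsf10b, Tnfrsf1a and Tnfrsf1b, the ligands Fasl and Tnfsf10, the adaptor Fadd, the caspase gene Casp8 and the inhibitor Cflar. They were taken by gene symbol, and all 9 were found by Entrez identifier among the 27179 genes of the count table.

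The libraries are RNA-seq of T-ALL cells (acute lymphoblastic leukemia of the T lineage) sorted from the spleens of mice that carried 1 primary mouse leukemia, ALL101. Its cells hold a Vav-tTA transgene, in which the blood-cell Vav promoter drives a tetracycline-off transactivator, and TRE-GFP-shIkaros, a GFP-linked hairpin against Ikaros (Ikzf1). In 3 mice given doxycycline (Dox) for 3 days the hairpin was shut off and the sorted cells were GFPmid, and in 3 untreated mice it remained on and the cells were GFPhigh. Treatment and sort gate cannot be told apart, no leukemia without the hairpin received doxycycline, and the 6 mice are recipients of 1 leukemia, so the error is the spread between recipients.

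Ikzf1 was at 1438, 1523 and 1495 CPM (counts scaled to a fixed total, with TMM-scaled library sizes) in doxycycline mice 1, 2 and 3, against 153, 149.7 and 159 CPM in untreated mice 1, 2 and 3, in the direction of the labels. The mice had 29904744 to 44949303 counts over 2 sequencing runs. All 12 T-lineage markers listed exceeded 1 CPM in both groups, and they summed to 11911 to 13553 CPM in doxycycline mice and 8782 to 9229 CPM in untreated mice. Of these 12, 7 rose and 2 fell, against 24.8% higher and 25.2% lower over all genes tested. The co-receptor gene Cd4 was at 437, 579 and 343 CPM in doxycycline mice and 87.0, 87.4 and 131 CPM in untreated mice. Ptcra, the pre-T-cell receptor alpha gene, was at 17.8, 48.6 and 16.7 CPM in doxycycline mice and 115, 115 and 145 CPM in untreated mice. Among genes of the T-cell receptor complex, Cd3e and Cd3d were not called, Cd3g was lower (log2 fold change -0.45) and Cd247 was higher (0.50). Of 8 B-cell markers, Ighm supplied nearly all of a sum of 251 to 297 CPM in doxycycline mice and 208 to 355 CPM in untreated mice, the other 7 lay under a mean of 1 CPM in both groups, and Pax5 and Blk had no count in any mouse. The summed level of 8 macrophage and monocyte markers was 75.9 to 106 CPM in doxycycline mice and 22.6 to 29.6 CPM in untreated mice. Of these, 6 of 7 tested markers were higher, where 24.8% of all genes tested were higher. Erythroid markers (7 matched) summed to 64.0 to 93.2 CPM in doxycycline mice and 7.44 to 39.6 CPM in untreated mice. Neutrophil markers (8) summed to 4.53 to 8.13 CPM in doxycycline mice and 11.3 to 26.1 CPM in untreated mice. In sorted bulk samples, fewer cells of a type and less RNA per cell cannot be told apart. The library name of untreated mouse 3 holds INJ in place of the sort wording of the other mice.

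After doxycycline, Fas, Tnfrsf1a and Cflar rose, and Tnfsf10 and Tnfrsf10b fell. Fadd, Casp8 and Tnfrsf1b did not pass the test, and Fasl was too low to be tested. Thus 8 of the 9 genes entered edgeR's quasi-likelihood test across 13134 genes, and 5 passed at an adjusted p under 0.05, 3 higher and 2 lower. Over all genes tested 50.0% passed, 24.8% higher and 25.2% lower, so the share among these genes is near the background. The values of the groups did not overlap for 5 of the 8, against 61.2% of all genes tested. Without doxycycline mouse 2 the counts were 5 higher and 1 lower, and without doxycycline mouse 1 or untreated mouse 2 they were 3 higher and 1 lower. Without untreated mouse 3 they stayed at 3 higher and 2 lower.

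**Figure D1:**
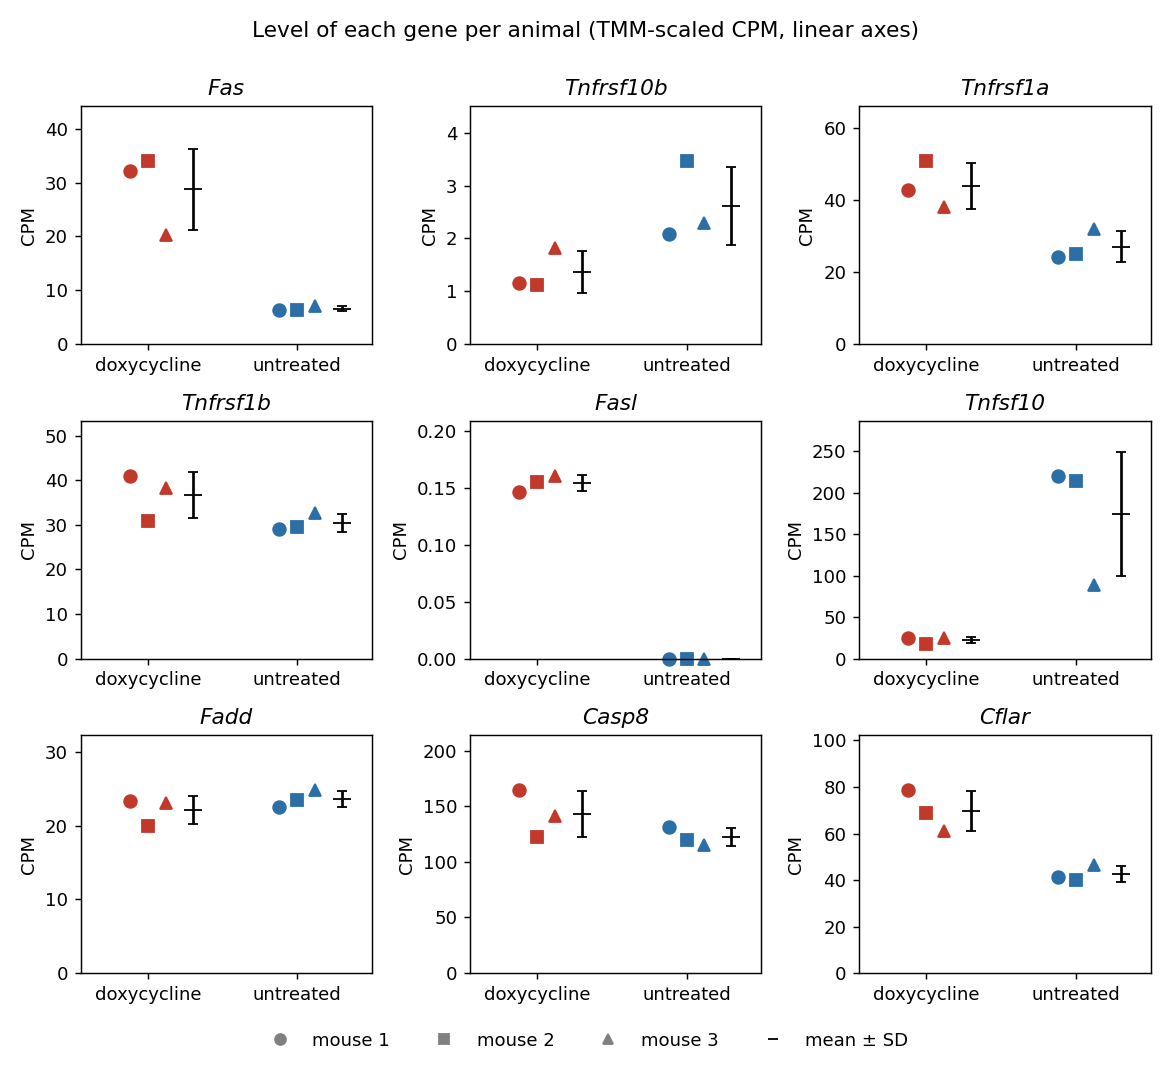
Level of each of the 9 genes in each animal, in TMM-scaled CPM on linear axes that start at 0, with doxycycline mice in red on the left, untreated mice in blue on the right and the mean ± SD of 3 mice as black bars. Fas and Cflar lie higher in every doxycycline mouse, Tnfsf10 lies lower in every one, and Fadd overlaps between the groups.

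Fas, the receptor of Fas ligand, showed the largest rise of the 8 tested genes. It was at 32.1, 34.0 and 20.2 CPM in doxycycline mice 1, 2 and 3, against 6.27, 6.32 and 7.09 CPM in untreated mice 1, 2 and 3. Every doxycycline mouse lay above every untreated mouse, and doxycycline mouse 3 was the lowest of its group. The means were 28.8 ± 7.49 CPM in doxycycline mice and 6.56 ± 0.455 CPM in untreated mice (SD, n = 3 each), a 4.38-fold difference with a log2 fold change of 2.13 ± 0.20 (SE, edgeR adjusted p = 0.000196). Only 269 of the 13134 tested genes had a larger log2 fold change. With each mouse left out in turn it ran between 2.00 and 2.34. Fas (Entrez 14102) lies on chromosome 19 at 34290647 to 34327775 of GRCm38 (mm10).

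Tnfrsf1a, the TNF receptor with a death domain, rose less. It was at 42.7, 50.7 and 38.0 CPM in doxycycline mice and 24.0, 24.9 and 31.8 CPM in untreated mice. The groups did not overlap, with doxycycline mouse 2 and untreated mouse 3 the highest of their groups. The log2 fold change was 0.70 ± 0.14 (SE, edgeR adjusted p = 0.00423). Tnfrsf1b, the TNF receptor without a death domain, was at 41.0, 30.9 and 38.2 CPM in doxycycline mice and 29.1, 29.4 and 32.7 CPM in untreated mice. Here doxycycline mouse 2 lay within the untreated range, and the log2 difference of 0.27 ± 0.11 did not pass (edgeR adjusted p = 0.0760). Without doxycycline mouse 2 it was 0.39 and passed (edgeR adjusted p = 0.00798), and with doxycycline mouse 1 left out it was 0.19 (edgeR adjusted p = 0.233). Of 7 tested macrophage and monocyte markers, 6 were also higher in doxycycline mice, against 24.8% of all genes tested. Lyz2 overlapped between the groups and was not called (edgeR adjusted p = 0.429). Itgam was the highest of the list, at a mean of 44.1 CPM in doxycycline mice and 9.86 CPM in untreated mice. The part of these markers in the levels of Fas and the TNF receptors was not tested.

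Tnfrsf10b, the death-domain receptor of Tnfsf10 in mouse, had the lowest level per kilobase of the 4 receptors and fell. It had 39, 50 and 79 counts in doxycycline mice and 62, 115 and 69 counts in untreated mice. Scaled, that is 1.15, 1.11 and 1.82 CPM in doxycycline mice, against 2.08, 3.46 and 2.30 CPM in untreated mice. The highest doxycycline mouse lay just under the lowest untreated mouse. The log2 fold change was -0.94 ± 0.30 (SE, edgeR adjusted p = 0.0277). The adjusted p was 0.0906 without doxycycline mouse 1, 0.0779 without doxycycline mouse 2 and 0.117 without untreated mouse 2. Of the 4 receptors, 2 thus rose, 1 fell and 1 did not pass, against 24.8% higher and 25.2% lower over all genes tested.

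Tnfsf10, encoding the ligand TRAIL, showed the largest fall of the 8 tested genes. It was at 24.8, 17.9 and 24.7 CPM in doxycycline mice 1, 2 and 3, against 221, 214 and 88.5 CPM in untreated mice 1, 2 and 3. The groups did not overlap, and untreated mouse 3 held less than the other untreated mice but more than any doxycycline mouse. The means were 22.5 ± 3.96 CPM in doxycycline mice and 174 ± 74.5 CPM in untreated mice (SD, n = 3 each), a 7.76-fold difference with a log2 fold change of -2.96 ± 0.41 (SE, edgeR adjusted p = 0.00328). Only 129 tested genes had a lower log2 fold change. Leaving out untreated mouse 3 gave a log2 fold change of -3.28. Of 7 tested neutrophil markers, 5 fell and 0 rose, where 25.2% of all genes tested were lower and 24.8% higher. The list of 8 summed to 7.94, 8.13 and 4.53 CPM in doxycycline mice 1, 2 and 3, against 16.4, 26.1 and 11.3 CPM in untreated mice 1, 2 and 3, and its part in the level of Tnfsf10 was not tested. Tnfsf10 (Entrez 22035) lies on chromosome 3 at 27317077 to 27339665.

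The upstream sequences of 3 genes are shown because they had the largest rise (Fas) and the largest fall (Tnfsf10) of the 8 tested genes and the rise among TNF receptors (Tnfrsf1a). They come from the RefSeq promoter table of GRCm38.p6, which held 8 of the 9 genes, are on the plus strand and end at the base before the annotated gene start. Capitals mark GGGAA, a core bound by Ikaros proteins, or its reverse complement. The windows are chr19:34290409-34290646, chr6:125349473-125349722 and chr3:27316827-27317076.
Fas: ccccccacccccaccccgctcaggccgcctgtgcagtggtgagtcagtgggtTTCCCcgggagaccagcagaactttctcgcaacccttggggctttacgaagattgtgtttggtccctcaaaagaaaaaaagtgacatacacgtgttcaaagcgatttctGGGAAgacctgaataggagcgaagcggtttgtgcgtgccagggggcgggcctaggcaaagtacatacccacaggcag
Tnfrsf1a: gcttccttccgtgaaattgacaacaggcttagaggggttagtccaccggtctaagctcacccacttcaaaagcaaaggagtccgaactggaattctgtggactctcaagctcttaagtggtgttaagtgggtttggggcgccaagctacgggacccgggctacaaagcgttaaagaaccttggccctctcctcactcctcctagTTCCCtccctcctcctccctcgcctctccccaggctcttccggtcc
Tnfsf10: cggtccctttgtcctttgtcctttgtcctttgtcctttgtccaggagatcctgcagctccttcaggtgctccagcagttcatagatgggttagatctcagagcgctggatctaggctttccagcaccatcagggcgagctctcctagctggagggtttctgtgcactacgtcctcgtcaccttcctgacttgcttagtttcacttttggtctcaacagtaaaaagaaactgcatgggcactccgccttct
The Fas window of 238 bases held 2 matches, the Tnfrsf1a window of 250 bases held 1, and the Tnfsf10 window held 0. Among all 32851 promoters of the table, 54.4% of windows of 238 bases and 56.2% of windows of 250 bases hold at least 1 match on either strand. These are matches of letters in short windows, and no binding was measured in these libraries.

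Fasl, the ligand of Fas, was close to undetected. It had 5, 7 and 7 counts in doxycycline mice and 0 counts in each untreated mouse. The mean of 0.154 CPM in doxycycline mice was 1.59-fold the 0.0969 CPM that 3 counts per mouse make in untreated mice. That allowance covers counting error in the untreated mice only, and the 5, 7 and 7 counts carry an error of their own. The filter on low counts removed Fasl. A fit without that filter held it only through its counts in doxycycline mice, so no p-value is given for it. NK cells also make Fas ligand. Of 8 NK-cell markers, only Gzma exceeded a mean of 1 CPM, and Klra8 had no count. Ncr1 and Klre1 each had 0 counts over the doxycycline mice and 1 count over the untreated mice. Klrk1 had 12 counts over the doxycycline mice and 1 over the untreated mice, and Eomes had 8 and 3. In the other direction, Nkg7 had 14 counts over the doxycycline mice and 18 over the untreated mice, and Klrb1c had 20 and 36. Klrb1c was called lower (log2 fold change -1.23 ± 0.37, edgeR adjusted p = 0.0219). The summed level of the list, nearly all from Gzma, was 326 to 928 CPM in doxycycline mice and 811 to 1412 CPM in untreated mice, and the part of NK cells in the counts of Fasl was not tested.

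Downstream of the receptors, the inhibitor rose, and neither the adaptor nor the caspase passed the test. Fadd was at 23.3, 19.9 and 23.1 CPM in doxycycline mice and 22.6, 23.5 and 24.8 CPM in untreated mice, so the groups overlapped. Its log2 difference was -0.10 ± 0.10 (edgeR adjusted p = 0.417). Casp8 was at 165, 123 and 142 CPM in doxycycline mice, against 131, 119.8 and 115 CPM in untreated mice. The groups overlapped through doxycycline mouse 2, and the log2 difference of 0.23 ± 0.11 did not pass (edgeR adjusted p = 0.111). Without that mouse it was 0.34 and passed (edgeR adjusted p = 0.0128), and without doxycycline mouse 1 it was 0.12 (edgeR adjusted p = 0.351).

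Cflar was at 78.6, 69.0 and 61.2 CPM in doxycycline mice, against 41.1, 39.9 and 46.5 CPM in untreated mice. No value of one group fell within the other, and the log2 fold change was 0.71 ± 0.11 (SE, edgeR adjusted p = 0.000967), or 1.64-fold on mean CPM. Leaving out each mouse in turn gave 0.62 to 0.80. Gene counts do not separate the long and short forms of c-FLIP. Cflar and Casp8 are neighbours on chromosome 1, at 58711311 to 58758884 and 58795233 to 58847503, with 36348 bases and 1 annotated long non-coding RNA gene between them. Elsewhere in the genome, Tnfrsf1a lies on chromosome 6 at 125349723 to 125362483 and Tnfrsf1b on chromosome 4 at 145212368 to 145246870. Tnfrsf10b lies on chromosome 14 at 69767472 to 69784411, Fasl on chromosome 1 at 161780691 to 161788495 and Fadd on chromosome 7 at 144578323 to 144582441. In the RefSeq table no annotated gene overlaps any of the 9.

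**Figure D2:**
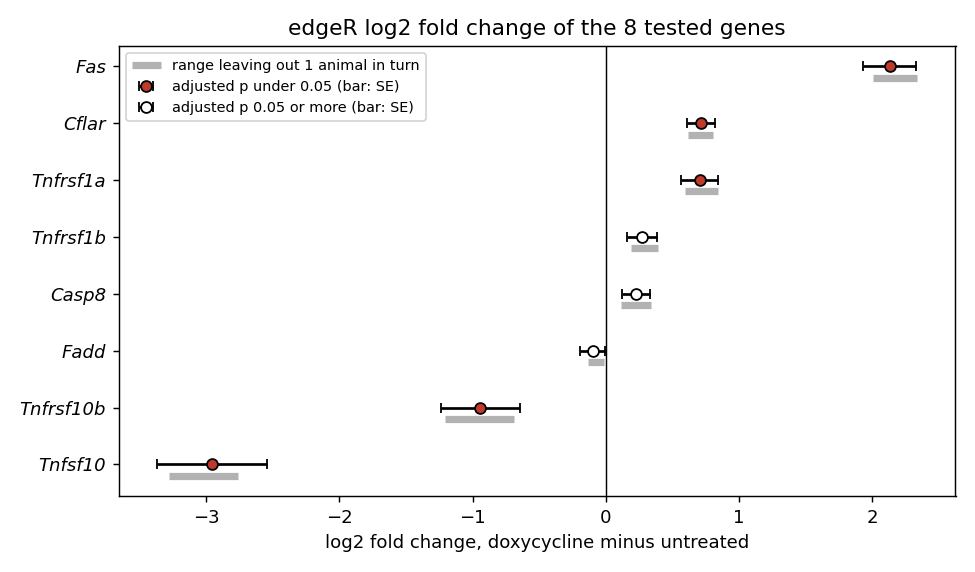
Log2 fold change (doxycycline minus untreated) of the 8 tested genes from edgeR, with SE as black bars, filled points for an adjusted p under 0.05, and grey bands for the range when 1 animal is left out in turn. Fas at 2.13 and Tnfsf10 at -2.96 lie at the ends, and the band of Fadd comes closest to 0.

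Each RNA was sequenced in 2 runs, which serve as a technical repeat. The CPM of run 2 over that of run 1 lay between 0.901 and 1.25 for 7 of the genes in 6 mice. For Tnfrsf10b, with few counts, it lay between 0.683 and 1.42, and Fasl had too few counts for such a ratio.

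Levels of different genes were compared per kilobase of the deposited exon length. In doxycycline mice the order in CPM per kilobase was Casp8 (51.5 ± 7.54), Tnfrsf1a (20.3 ± 2.97), Fas (16.0 ± 4.16), Cflar (8.91 ± 1.12), Fadd (7.69 ± 0.662), Tnfrsf1b (7.47 ± 1.06), Tnfsf10 (4.55 ± 0.800), Tnfrsf10b (0.427 ± 0.125) and Fasl (0.0798 ± 0.00364), as mean ± SD of 3 mice. There, Tnfrsf1a and Fas overlapped, as did Cflar with Fadd and Fadd with Tnfrsf1b. In untreated mice it was Casp8 (44.0 ± 2.92), Tnfsf10 (35.3 ± 15.1), Tnfrsf1a (12.5 ± 1.99), Fadd (8.23 ± 0.393), Tnfrsf1b (6.19 ± 0.40), Cflar (5.44 ± 0.448), Fas (3.64 ± 0.253) and Tnfrsf10b (0.822 ± 0.234), with Fasl at 0. In that group Casp8 overlapped with Tnfsf10 and Tnfrsf1b with Cflar. Casp8 held the first place in both groups, Fas held the third place with doxycycline and the seventh without it, and Tnfsf10 held the seventh place with doxycycline and the second without it.

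**Figure D3:**
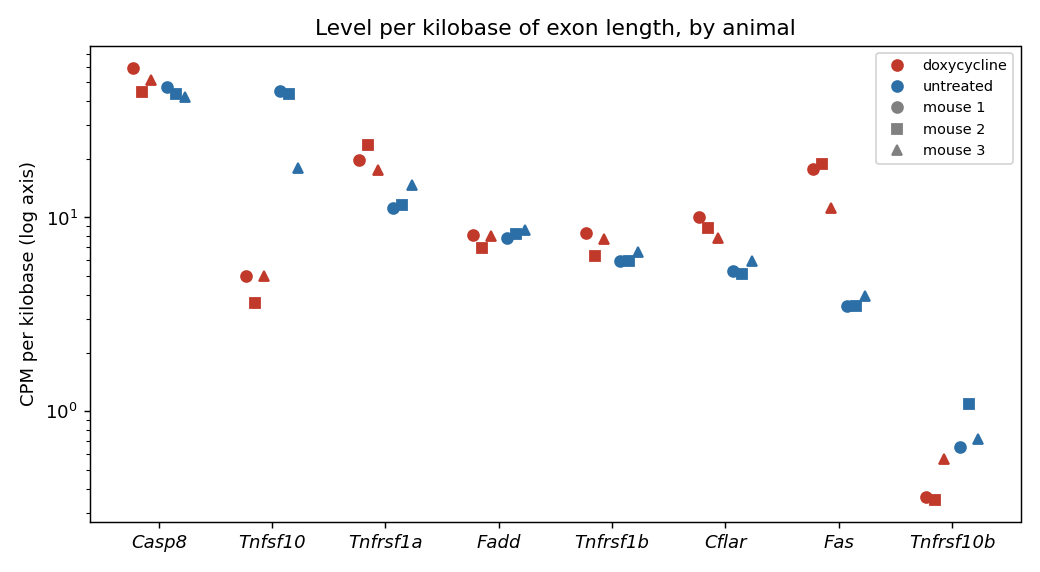
Level per kilobase of exon length (CPM per kilobase, log axis) of 8 genes in each animal, doxycycline in red left of untreated in blue, in the order of the untreated means, without Fasl, which had 0 counts in untreated mice. Tnfsf10 and Fas cross most of the other genes between the groups.

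Ratios between genes of 1 animal do not depend on the library scaling, and 3 were compared on the log2 scale of counts per kilobase. For Cflar over Casp8 the ratio was 0.170, 0.1996 and 0.154 in doxycycline mice, against 0.111, 0.118 and 0.143 in untreated mice. The groups did not overlap, although the caspase transcript exceeded the inhibitor in every mouse, and the mean log2 difference was 0.49. The ratio of Tnfrsf1b to Tnfrsf1a was 0.421, 0.268 and 0.440 in doxycycline mice and 0.533, 0.518 and 0.450 in untreated mice. Its mean log2 difference was -0.44, with doxycycline mouse 3 only just below untreated mouse 3. Without doxycycline mouse 2 it was -0.21, and in run 2 alone the groups overlapped (exact permutation p = 0.3). The ratio of Fas to Tnfrsf10b was 49.4, 54.0 and 19.6 in doxycycline mice, against 5.32, 3.22 and 5.45 in untreated mice, a mean log2 difference of 3.04. For each of the 3 ratios the two-sided exact permutation p was 0.1, and 0.1 after Benjamini-Hochberg adjustment over 3, which is the smallest that 3 against 3 mice allow.

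**Figure D4:**
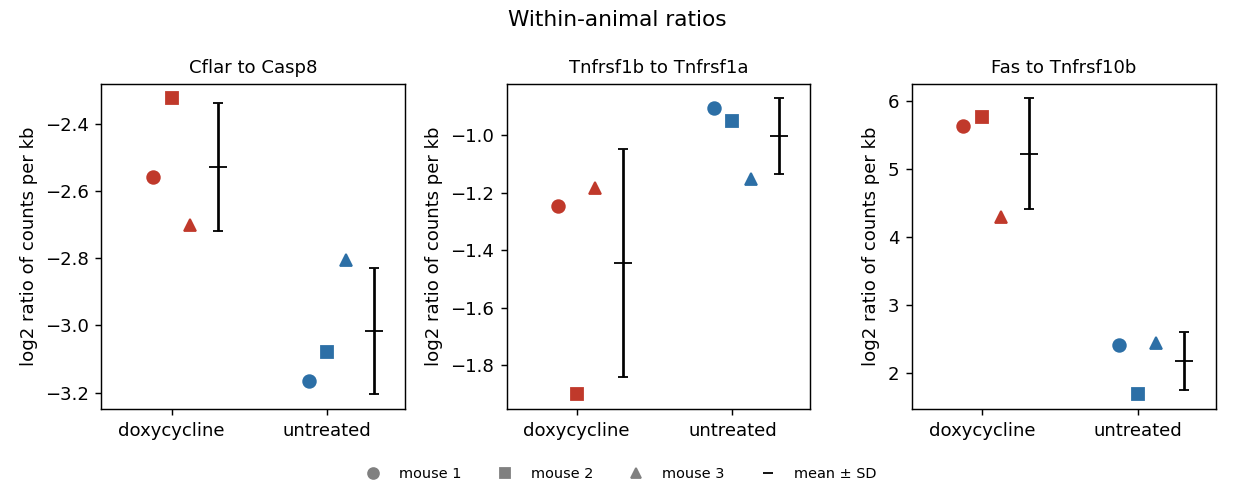
Log2 ratio of counts per kilobase within each animal for 3 pairs of genes, doxycycline mice in red on the left and untreated mice in blue on the right, with the mean ± SD of 3 mice in black. Cflar to Casp8 and Fas to Tnfrsf10b lie higher in doxycycline mice, and Tnfrsf1b to Tnfrsf1a lies lower.

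Of the 48 other pathway genes listed, 43 were tested, and 15 rose, 8 fell and 20 did not pass. The share that passed, 53.5%, is near the 50.0% of all genes tested, of which 24.8% were higher and 25.2% lower. The median log2 fold change of the 43 genes was 0.09, against -0.0037 over all genes tested. Among 4 tested TNF-family ligands outside the 9 genes, 3 rose and 0 fell, where 24.8% of all genes tested were higher. Tnfsf10, the tested ligand among the 9, fell. Ltb, encoding the membrane anchor of lymphotoxin, was at 30.1, 25.2 and 25.5 CPM in doxycycline mice and 10.8, 11.7 and 12.6 CPM in untreated mice (log2 fold change 1.20 ± 0.11, edgeR adjusted p = 0.00013). Lta, the other lymphotoxin chain, rose by 1.92 ± 0.39 log2 units at 3.12 ± 0.689 CPM in doxycycline mice and 0.824 ± 0.497 CPM in untreated mice (edgeR adjusted p = 0.00446), and by 2.52 without untreated mouse 3. Tnfsf14, encoding the ligand LIGHT, rose by 0.73 ± 0.14 (edgeR adjusted p = 0.00317).

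Of the 7 other receptors, 2 were higher and 3 lower, against 24.8% higher and 25.2% lower over all genes tested, so the number that rose is near the background. Tnfrsf25, a death-domain receptor of T cells, was at 1.76 ± 0.278 CPM in doxycycline mice and 0.579 ± 0.247 CPM in untreated mice, and Tnfrsf26 was at 18.2 ± 0.816 CPM in doxycycline mice and 8.25 ± 0.985 CPM in untreated mice (SD, n = 3 each). Tnfrsf25 rose by 1.60 ± 0.35 on the log2 scale and Tnfrsf26 by 1.14 ± 0.12 (edgeR adjusted p = 0.00566 and 0.000223). Tnfrsf21, another death-domain receptor, fell to 7.26, 3.95 and 7.11 CPM in doxycycline mice, against 18.8, 20.0 and 13.0 CPM in untreated mice, with a log2 fold change of -1.50 ± 0.27 (SE) that passed at an edgeR adjusted p of 0.00314. Ltbr, the lymphotoxin beta receptor, was named after its values were seen. It was at 0.382, 0.466 and 0.368 CPM in doxycycline mice and 7.51, 7.05 and 1.23 CPM in untreated mice (log2 fold change -3.68 ± 0.71, edgeR adjusted p = 0.0060). As with Tnfsf10, untreated mouse 3 lay lowest of the untreated mice for both Tnfrsf21 and Ltbr.

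Among adaptors and ubiquitin enzymes of the receptor complexes, 8 of 14 rose, 0 fell and 6 did not pass, against 24.8% higher and 25.2% lower over all genes tested. Birc3 and Birc2 encode the cellular inhibitor-of-apoptosis ubiquitin ligases. Birc3 was at 20.0, 20.7 and 20.8 CPM in doxycycline mice and 11.6, 10.9 and 10.5 CPM in untreated mice, a rise of 0.90 ± 0.09 on the log2 scale (edgeR adjusted p = 0.000213). Birc2 rose by 0.62 ± 0.08 (edgeR adjusted p = 0.000408). Cyld, a deubiquitinase that acts on the same complexes, was at 149, 149.99 and 131 CPM in doxycycline mice against 80.8, 81.6 and 91.6 CPM in untreated mice, and rose by 0.76 ± 0.08 (edgeR adjusted p = 0.000266).

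Of the other caspase genes described here, 1 rose and 1 fell, against 24.8% higher and 25.2% lower over all genes tested. Casp6, encoding an executioner caspase, rose by 0.78 ± 0.11 on the log2 scale, at 35.9, 40.9 and 31.8 CPM in doxycycline mice and 20.3, 20.1 and 22.7 CPM in untreated mice (edgeR adjusted p = 0.000752). Casp2, an initiator caspase gene, fell by 0.32 ± 0.07 on the log2 scale, with 199.8, 182 and 183 CPM in doxycycline mice against 237, 250.5 and 219 CPM in untreated mice (edgeR adjusted p = 0.00735). Casp9, the initiator of the mitochondrial arm, had a log2 difference of 0.03 ± 0.10 and did not pass (edgeR adjusted p = 0.848). The inflammatory caspase genes Casp1, Casp4 and Casp12 were all too low to be tested.

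In the list of the mitochondrial arm 4 of 11 genes fell, 0 rose and 7 did not pass. That list also held Casp8ap2, Dffa and Dffb, which act outside mitochondria, and none of them passed. Over all genes tested 25.2% were lower and 24.8% higher. Bid, whose product is cut by the Casp8 protease and carries the signal to mitochondria, was at 64.4, 72.7 and 70.6 CPM in doxycycline mice and 106, 108 and 99.4 CPM in untreated mice, and its fall on the log2 scale, -0.59 ± 0.07, passed (edgeR adjusted p = 0.000439). The pore-forming gene Bax and the mitochondrial protease gene Htra2 fell by 0.51 ± 0.10 and 0.51 ± 0.09 (edgeR adjusted p = 0.00301 and 0.00196). In the necroptosis list Zbp1, a nucleic acid sensor, rose by 2.54 ± 0.17 (edgeR adjusted p = 6.7e-05), at 81.1, 55.5 and 56.1 CPM in doxycycline mice against 12.3, 10.7 and 10.1 CPM in untreated mice. Ripk3, the kinase it engages, had a log2 difference of 0.08 ± 0.08 (edgeR adjusted p = 0.448), and Mlkl, the membrane-permeabilising protein of necroptosis, had only 14 counts over the doxycycline mice and 10 over the untreated mice.

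**Figure D5:**
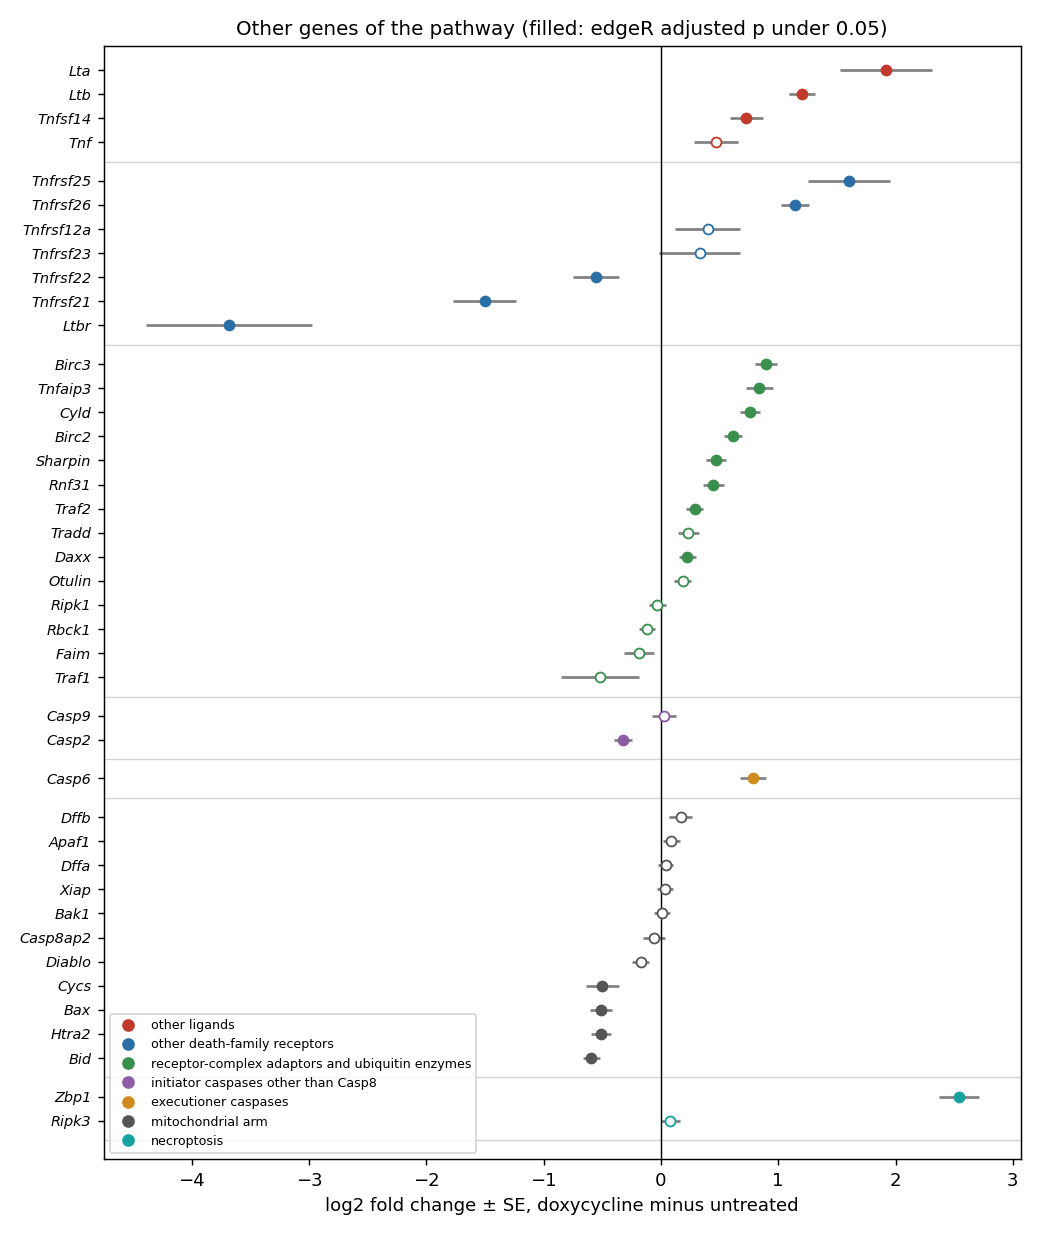
Log2 fold change ± SE (doxycycline minus untreated) of tested pathway genes outside the 9, grouped by role from ligands at the top to necroptosis at the bottom, with filled points for genes that passed edgeR's test. The 8 adaptors and ubiquitin enzymes that passed lie above 0, and the 4 genes of the mitochondrial arm that passed lie below 0.

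The genes whose pattern over the 6 mice was nearest to that of Fas, by Euclidean distance between gene-centred log2(CPM + 0.5), were Fam214a (distance 0.149), Cd8a (0.206), the CD8 alpha chain gene, and Lipa (0.293), encoding lysosomal acid lipase. Like Fas, they were lowest in doxycycline mouse 3 of the treated mice: Cd8a was at 1846, 2197 and 1385 CPM in doxycycline mice and 419, 412 and 506 CPM in untreated mice. Lipa lies on chromosome 19, as Fas does, with 164540 bases between them. The genes nearest to Casp8 were Tagap, Herc6 and Cbfb, at distances of 0.0783, 0.0959 and 0.0979, and like Casp8 none of them passed the test. Both sets were chosen by pattern over these same 6 mice, so such likenesses of pattern and call follow from the choice.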

How the data were processed

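Leukemia cells of 6 mice were profiled in 12 libraries, 2 sequencing runs per RNA. The authors deposited raw counts per Entrez gene, with a gene length. The submitters' processing notes name CASAVA 1.8.1, featureCounts and the build mm10, with aligner, annotation, strand setting and handling of multi-mapping reads not given in the sources used here. Per-library and whole-series tables held equal counts in 12 of 12 libraries.

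Runs were summed per mouse. Symbols came from RefSeq GRCm38.p6 (25275 of 27179 identifiers). The main test was the robust quasi-likelihood F test of edgeR 4.0.16 in R 4.3.3, after filterByExpr and TMM, without a block and with Benjamini-Hochberg adjustment over 13134 genes. Each SE was taken from the fold change and its F statistic, as log2 fold change over root F. A count of 0 allows 0.0667 to 0.10 CPM (3 counts).

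Genes and lists were chosen with earlier results of these data known. Named pathway genes are up to 3 per list with the smallest adjusted p, and all initiator and executioner caspases. Some of these genes are counted in their lists but not reported here. Alternatives were other scalings, filters and tools (DESeq2 1.42.0, limma 3.58.1 voom), single runs, a replicate block and left-out mice.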

Additional observations from a re-analysis of the deposited data

How the results depend on the processing

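No call of the 8 tested genes or the named pathway genes changed direction in any alternative run. For the 8 genes, 135 recomputed values kept their side of the threshold, 4 lost it and 5 gained it. For the pathway genes under the naming rule 322 kept it and 2 gained it. With 1 mouse left out in turn, 3 to 5 of the genes were higher and 1 to 2 lower. Without both untreated mouse 3 and doxycycline mouse 2, 5 were higher and 1 lower. In that setting the edgeR adjusted p was 0.0504 for Tnfrsf10b, 0.00271 for Tnfrsf1b and 0.0212 for Casp8. In run 2 alone it was 0.0471 for Tnfrsf1b. Without a filter on low counts Fasl entered the fit only through its counts in doxycycline mice, so its call there is not read as a result. The causes were not tested. The number of genes called ran from 4869 to 6617 over all alternatives.

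With the replicate number as a block, 3 of the genes were higher and 2 lower, and 6259 genes passed in all. Same-numbered mice had correlations of their deviations from the group means of 0.19, -0.02 and -0.12. Those of differently numbered mice ran from -0.23 to 0.20. No pairing by number was visible, but 3 mice per group are too few to settle it. The paired sign-flip p of each ratio cannot fall below 0.25. Depth limits Fasl and Tnfrsf10b most.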
